A study of Mus musculus with 11 samples.

Results

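Nuclease genes of the kidney were followed across 3 groups of female mice, in which the enzyme DNase I itself had been the treatment. The 10 members were chosen by symbol and comprised Dnase1, Dnase1l1, Dnase1l2, Dnase1l3, Dnase2a, Trex1, Dffb, Endog, Samhd1 and Plac8. Of these, 9 were analysed, out of 25677 genes listed, and Trex1 was not analysed here. The groups were kidneys of 3 C57BL/6J control mice (Ctr, given as C57B6 in the labels), 4 MRL/lpr mice without treatment (Lpr), and 4 of the same strain (DNase) that received DNase I by daily intraperitoneal injection from week 17. Mice of all groups were 21 weeks old when the kidneys were taken. The MRL/lpr strain has a defective Fas gene and comes down with a nephritis that resembles lupus. Ctr mice are of another strain, so in every comparison with Ctr the strain and the disease cannot be told apart. Each library came from 1 mouse, and the injected enzyme is a protein that RNA sequencing does not measure.

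DNases of the DNASE1 family cut DNA outside cells and in the blood, DNase II digests the DNA of engulfed cells in lysosomes, and further nucleases fragment the genome of dying cells or remove DNA from the cytosol. DNA that is not cleared can bind autoantibodies and can engage nucleic acid sensors that induce interferon, and loss of Dnase1, Dnase1l3, Dnase2a, Trex1 or Samhd1 is known for autoimmune or autoinflammatory disease in mice or humans. The kidney is a known site of Dnase1 expression. Plac8 was placed with these genes but encodes a small cysteine-rich protein that is not known as a nuclease, and its values are given as those of a listed symbol only.

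Promoter sequences are shown for the listed genes that differed between Lpr and Ctr and had a RefSeq entry (build GRCm38.p6), which were Dnase1, Samhd1 and Plac8. Each window runs from 250 bases before to 50 bases after a transcript start, 5′ to 3′ on the strand of the gene. Dnase1 is shown at chr16:4036786-4037085 on the plus strand, Samhd1 at chr2:157135047-157135346 on the minus strand and Plac8 at chr5:100572156-100572455 on the minus strand. Their gene models (GENCODE, GRCm38) span chr16:4036942-4040024, chr2:157097533-157135265 and chr5:100553725-100572245, and that of Dnase1l3, on the minus strand like the latter 2, spans chr14:7964533-7994573. Each window therefore covers sequence upstream of a transcript and its first 50 bases. Capitals mark a match to the GAS motif, an interferon-gamma activated sequence, searched as TTCNNNGAA.
Dnase1: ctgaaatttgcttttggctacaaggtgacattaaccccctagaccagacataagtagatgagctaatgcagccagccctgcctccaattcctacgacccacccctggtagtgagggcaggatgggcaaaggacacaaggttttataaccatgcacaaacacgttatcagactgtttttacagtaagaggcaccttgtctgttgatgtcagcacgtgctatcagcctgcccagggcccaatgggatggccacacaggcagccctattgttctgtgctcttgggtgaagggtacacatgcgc
Samhd1: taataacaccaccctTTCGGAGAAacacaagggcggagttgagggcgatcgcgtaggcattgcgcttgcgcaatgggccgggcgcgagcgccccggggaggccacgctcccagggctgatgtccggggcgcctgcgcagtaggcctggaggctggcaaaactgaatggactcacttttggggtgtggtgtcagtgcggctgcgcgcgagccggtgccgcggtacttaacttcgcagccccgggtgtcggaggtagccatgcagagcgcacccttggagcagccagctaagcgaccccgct
Plac8: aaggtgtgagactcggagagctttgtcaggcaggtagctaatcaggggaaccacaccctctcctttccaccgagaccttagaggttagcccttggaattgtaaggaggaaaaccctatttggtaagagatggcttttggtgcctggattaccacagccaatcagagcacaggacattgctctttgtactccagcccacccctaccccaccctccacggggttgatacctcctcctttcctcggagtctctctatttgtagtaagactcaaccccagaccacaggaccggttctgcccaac

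Among 13 windows of the 9 members with an entry, the GAS letters occurred only in that of Samhd1, where the match began 235 bases before the transcript start. The letters of the interferon-stimulated response element, GAAANNGAAA, occurred in 0 of the 13 windows. Both strands were searched, and the motifs may overlap. Of 32851 RefSeq promoter windows of 300 bases, 8.3% held the GAS letters and 3.44% held those of the response element. A match is a description of letters and was not tested for binding.

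The kidneys held between 33469858 and 38460873 reads counted on genes. Marker lists of the kidney were present in all groups, with summed levels of 9 proximal tubule genes between 4473 and 6304 FPKM (fragments scaled to gene length and library total). Among immune cell markers the lists differed. Summed levels of 8 macrophage genes lay between 62.1 and 80.2 FPKM in Ctr, 343 and 737 in Lpr and 278 and 572 in DNase, and 7 of the 8 passed the test between Lpr and Ctr. In that comparison 2 of 6 neutrophil genes tested, 1 of 5 of B cells and 0 of 4 of plasmacytoid dendritic cells passed. No gene of these lists was at 0 in every kidney of the series, which was not checked group by group. Lpr replicate 3 stood apart by gene length. Its log2 levels, against the mean of all kidneys with itself included, fell by 0.33 for each doubling of gene length. Slopes in the other 10 kidneys lay between -0.03 and 0.07.

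In Ctr kidneys the RNA of the 9 analysed genes was dominated by Dnase1, which encodes the secreted endonuclease DNase I. Per length, Dnase1 reached 265 FPKM ± 66.9 (SD, n = 3) in Ctr and ranked between 203 and 334 among all genes listed. Endog was next with 28.5 FPKM ± 2.43, and the levels of Dnase1l1, Samhd1 and Dnase2a followed at 7.47 ± 0.489, 7.00 ± 0.240 and 6.22 ± 0.302 FPKM. The ranges of Dnase1l1 and Samhd1 overlapped, whereas Dnase2a lay below both in every Ctr kidney. Plac8 had 2.74 FPKM ± 0.332 and Dnase1l2 had 2.64 ± 2.01, with overlapping ranges. Dffb (0.478 ± 0.0889) and Dnase1l3 (0.200 ± 0.0575) were lowest. Of the summed FPKM of the 9 genes, Dnase1 accounted for 77.4% to 84.7% in Ctr, for 23.7% to 55.1% in Lpr and for 64.4% to 76.6% in DNase. The shares in Lpr lay below those in both other groups. The sum includes Plac8, which is not known as a nuclease, and leaves out other nucleases. In Ctr, 22 genes listed as other nucleases of DNA and RNA summed to 198 to 224 FPKM. The narrow gap between DNase (up to 76.6%) and Ctr (from 77.4%) does not hold without Plac8. FPKM rest on the length used by the authors, which for Dnase1 was 1492 bases against 3083 exon bases in GENCODE gene models, so the level and share of Dnase1 would be lower on the latter.

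**Figure D1:**
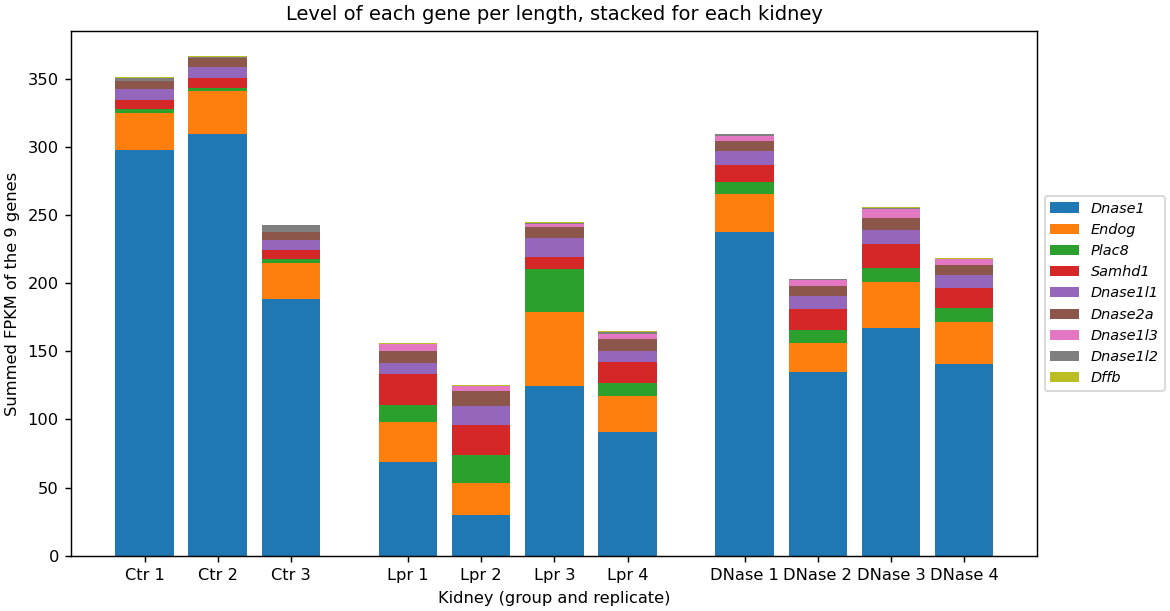
Level per gene length (FPKM, y axis) of the 9 analysed genes, stacked for each of the 11 kidneys (x axis, group and replicate), with 1 colour per gene. The Dnase1 segment reaches 188 to 309 FPKM in Ctr, 29.7 to 125 in Lpr and 134 to 237 in DNase, and the sum of all 9 genes ranges from 125 to 245 FPKM in Lpr and from 243 to 366 in Ctr.

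Dnase1 was lower in Lpr than in Ctr kidneys. Its level was 456, 493 and 285 CPM (counts scaled to a common library size by the TMM method of edgeR) in Ctr replicates 1 to 3 and 105, 42.8, 198 and 131 CPM in Lpr replicates 1 to 4. Every Lpr kidney lay below every Ctr kidney, and the highest Lpr kidney was replicate 3. The level was 3.42-fold lower in Lpr (log2 fold change -1.78, SE 0.44, edgeR adjusted p = 0.0371). In bulk kidney, fewer cells that express a gene and less RNA per cell cannot be told apart. Summed markers of proximal tubule were 5419 to 6061 FPKM in Ctr and 4473 to 5520 in Lpr. Those of thick limb and distal tubule were 2470 to 2586 and 1676 to 2244. As single genes, 0 of 9 proximal tubule markers passed, with 1 above 0. Of 7 thick limb and distal tubule markers, 1 passed as higher and 0 as lower, with 2 above 0. Sums were 243 to 629 and 372 to 698 for collecting duct principal cells, and 86.4 to 102 and 56.6 to 70.4 for intercalated cells. The part of these cells in the level of Dnase1 was not tested. The difference passed in 9 of 16 alternative settings and kept its sign in all 16. It did not pass without Ctr replicate 1 (adjusted p = 0.127 with edgeR), Ctr replicate 2 (0.128), Ctr replicate 3 (0.0622), Lpr replicate 1 (0.0981) or Lpr replicate 4 (0.0766). It passed without Lpr replicate 2 (log2 -1.51, edgeR adjusted p = 0.0294) or Lpr replicate 3 (log2 -2.14, edgeR adjusted p = 0.0105).

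In DNase kidneys Dnase1 was at 343, 192, 240 and 208 CPM in replicates 1 to 4. All but replicate 2 exceeded the highest Lpr kidney, at 198 CPM, and in FPKM the ranges were 134 to 237 in DNase and 29.7 to 125 in Lpr, without overlap. The fold change against Lpr was 2.05 (log2 1.04, SE 0.40, 95% interval 0.15 to 1.93) with an unadjusted p of 0.027, and it did not pass adjustment over all genes (edgeR adjusted p = 0.85). When 1 kidney was left out, the log2 difference ranged from 0.75 without Lpr replicate 2 (edgeR adjusted p = 0.787) to 1.40 without Lpr replicate 3 (0.297), and it was 0.83 without DNase replicate 1 (0.979). Against Ctr, Dnase1 was 1.67-fold lower in DNase kidneys (log2 -0.74, SE 0.23, edgeR adjusted p = 0.0441), and the groups overlapped. This call was lost without Ctr replicate 1 (edgeR adjusted p = 0.147) or 2 (0.139) and without DNase replicate 2 (0.108), 3 (0.0908) or 4 (0.114). The order of the mean levels was Ctr, DNase, Lpr. Both neighbouring pairs, Ctr with DNase and DNase with Lpr, overlapped in CPM. In GENCODE gene models, 16.3% of the exon bases of Dnase1 overlap the antisense gene Gm15879 and 1.8% overlap Trap1 on the opposite strand.

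Dnase1l3, which encodes a secreted nuclease made largely by macrophages and dendritic cells that digests chromatin in membrane particles, moved in the opposite direction. It had 1.11, 0.638 and 0.839 CPM in the Ctr kidneys, from 41, 20 and 28 counts. The Lpr kidneys had 20.7, 14.6, 7.56 and 13.8 CPM and the DNase kidneys 13.7, 16.8, 26.1 and 17.8 CPM. All 8 MRL/lpr kidneys lay above all 3 Ctr kidneys, and the lowest of the 8 was Lpr replicate 3. The level was 16.4-fold higher in Lpr than in Ctr (log2 4.04, SE 0.41, edgeR adjusted p = 0.000713) and 21.4-fold higher in DNase than in Ctr (log2 4.42, SE 0.29, edgeR adjusted p = 1.26e-05). These comparisons share the Ctr kidneys. The result passed in all 16 alternatives of each comparison. DNase and Lpr overlapped, with a log2 difference of 0.39 (95% interval -0.27 to 1.06, edgeR adjusted p = 0.854), which ranged from 0.18 without Lpr replicate 3 or DNase replicate 3 to 0.63 without Lpr replicate 1.

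Macrophage markers moved with Dnase1l3 between Lpr and Ctr (above). Those of conventional dendritic cells were split, with 5 of 7 genes above 0, all 5 past the test, and the rest not above 0. Their summed levels were 2.97 to 4.87 FPKM in Ctr, 8.36 to 16.5 in Lpr and 8.29 to 16.1 in DNase. The part of both cell types in the level of Dnase1l3 was not tested. Between DNase and Lpr the 8 macrophage genes had a median log2 difference of -0.52, with 0 of 8 above 0, and the 6 conventional dendritic cell genes tested had one of 0.08, with 4 of 6 above 0, beside the difference of 0.39 for Dnase1l3. The FPKM ratio of Dnase1 to Dnase1l3 was 947 to 2155 in Ctr, 8.21 to 73.0 in Lpr and 25.7 to 69.9 in DNase. The DNase range lay within that of Lpr only through Lpr replicate 3, which held the highest Lpr ratio. That kidney had 125 FPKM of Dnase1 and 1.71 of Dnase1l3, the longer gene by listed length, and stood apart by gene length (above). Without it, most DNase kidneys would lie above every Lpr kidney.

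The other members of the DNASE1 family were less abundant. Dnase1l1 encodes a membrane-anchored family member, with 13.5, 14.9 and 12.4 CPM in Ctr, 14.0, 23.0, 25.7 and 14.2 in Lpr and 17.4, 16.6, 17.6 and 16.4 in DNase. The DNase kidneys lay close together and above Ctr, whereas the Lpr kidneys fell to either side of them. The difference of DNase from Ctr passed (1.25-fold, log2 0.32, SE 0.10, edgeR adjusted p = 0.044). It was lost in 10 of 16 alternatives, with adjusted p up to 0.49 when the 3 groups were fitted together by edgeR. Among single kidneys, it was lost without Ctr replicate 1 (edgeR adjusted p = 0.13) or 3 (0.17) and without any of the 4 DNase kidneys (0.0769 to 0.0896). For Lpr against Ctr the log2 difference was 0.52 (95% interval -0.08 to 1.11, edgeR adjusted p = 0.315).

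Dnase1l2, known from keratinised epithelia, had 4.37, 1.98 and 9.86 CPM in Ctr, 0.763, 0.547, 2.42 and 2.92 in Lpr and 2.82, 1.52, 0.807 and 0.747 in DNase. Kidneys within each group differed several-fold, and the groups overlapped. It was 3.69-fold lower in DNase than in Ctr (log2 -1.89, SE 0.58, edgeR adjusted p = 0.0471), which passed in 5 of 16 alternatives and did not without Ctr replicate 3 (log2 -1.12, edgeR adjusted p = 0.216). It was also lost without Ctr replicate 1 (edgeR adjusted p = 0.0852) and without DNase replicate 2 (0.0994), 3 (0.107) or 4 (0.115). Between Lpr and Ctr the log2 difference was -1.69 (95% interval -3.27 to -0.12, edgeR adjusted p = 0.197), and it was -0.92 without Ctr replicate 3 (edgeR adjusted p = 0.634). With 21 to 329 counts per kidney, this gene was thinly covered.

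**Figure D2:**
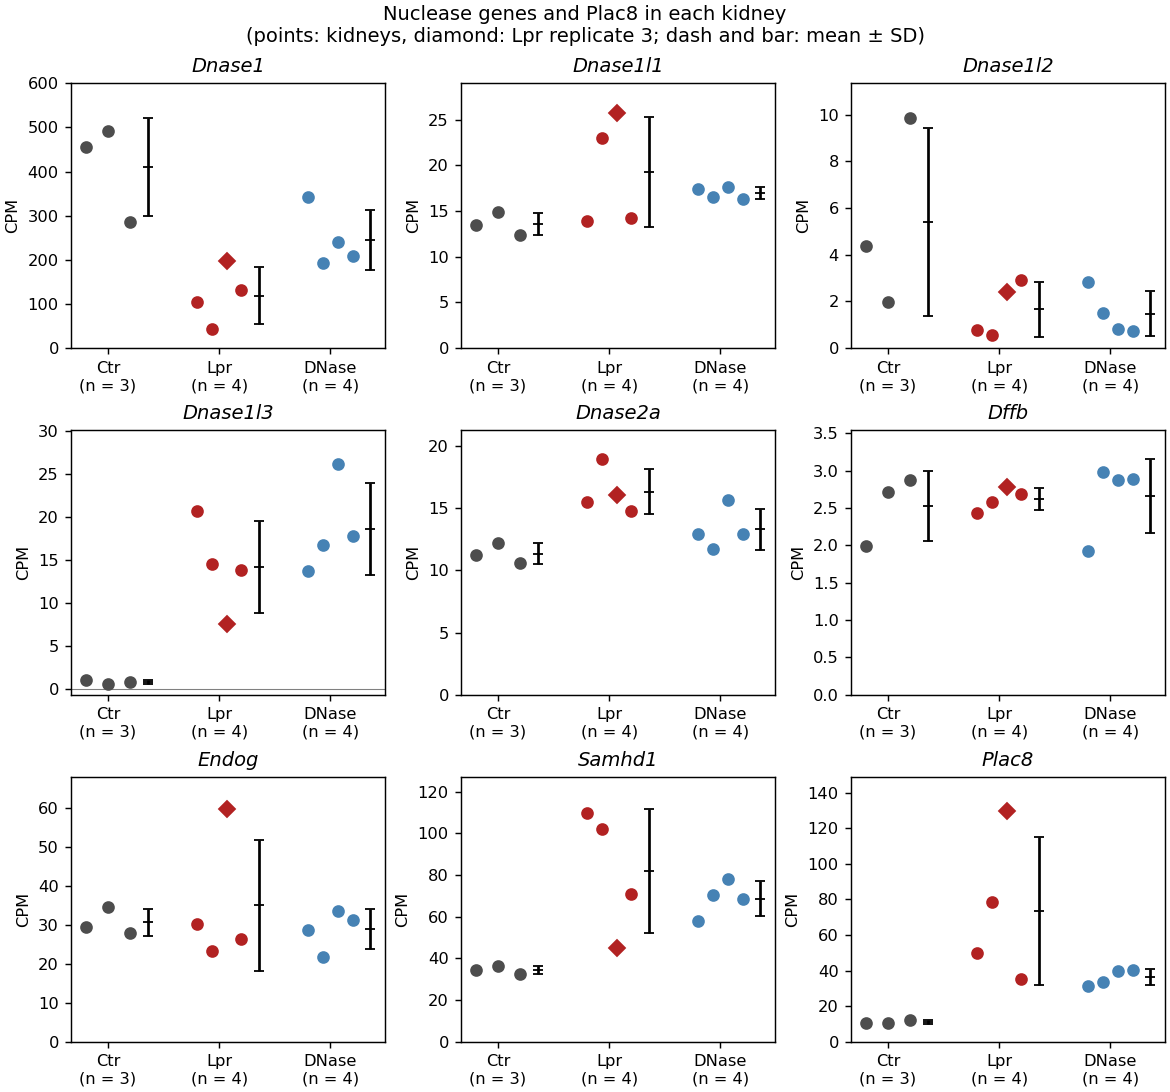
CPM of each analysed gene (y axis, linear) in every kidney of Ctr (n = 3), Lpr (n = 4) and DNase (n = 4), with points for kidneys, a diamond for Lpr replicate 3, and a dash and bar for the mean ± SD. Dnase1l3, Samhd1 and Plac8 lie higher in all 8 MRL/lpr kidneys than in all 3 Ctr kidneys, whereas Dnase1 in Lpr lies below Ctr.

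Dnase2a, which encodes the lysosomal acid nuclease that degrades DNA of engulfed cells, had 11.2, 12.2 and 10.6 CPM in Ctr and 15.5, 19.0, 16.1 and 14.8 in Lpr. The 4 Lpr kidneys lay above the 3 Ctr kidneys, but the difference did not pass (1.45-fold, log2 0.54, 95% interval 0.15 to 0.93, edgeR adjusted p = 0.0954). It passed with DESeq2 (adjusted p = 0.0449), with all 3 groups in 1 edgeR fit (0.0299) and without Lpr replicate 3 (0.039). DNase kidneys had 13.0, 11.8, 15.7 and 12.9 CPM, between the other groups on average. Their log2 difference was -0.30 from Lpr (95% interval -0.64 to 0.04, edgeR adjusted p = 0.854) and 0.23 from Ctr (95% interval -0.05 to 0.52, edgeR adjusted p = 0.24). In GENCODE gene models, 30.0% of the exon bases of Dnase2a overlap those of Mast1 on the opposite strand. The labels do not state whether the library kit kept the strand, so reads of both genes could not be told apart there.

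Nucleases that fragment the genome in dying cells did not pass in any of the 3 comparisons. Dffb, the caspase-activated DNase, had 2.00 to 2.88 CPM in Ctr, 2.43 to 2.78 in Lpr and 1.92 to 2.98 in DNase. Its log2 differences were 0.06 for Lpr against Ctr (95% interval -0.53 to 0.66), 0.02 for DNase against Lpr (-0.48 to 0.52) and 0.08 for DNase against Ctr (-0.46 to 0.62), with edgeR adjusted p of 0.915, 0.985 and 0.849. Endog, a nuclease of mitochondria, had 29.3, 34.4 and 27.9 CPM in Ctr, 30.2, 23.3, 59.7 and 26.4 in Lpr and 28.6, 21.6, 33.5 and 31.2 in DNase. Lpr replicate 3 alone exceeded all other kidneys. The log2 difference of Lpr from Ctr was 0.21 (95% interval -0.53 to 0.95, edgeR adjusted p = 0.773) and became -0.19 without Lpr replicate 3. Endog has the shortest listed length of the 9 genes (1032 bases), and 35.7% of its exon bases overlap Spout1 on the opposite strand.

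Samhd1 encodes a dNTP hydrolase that limits DNA synthesis by retroviruses and responds to interferon. It had 34.2, 36.2 and 32.2 CPM in Ctr, 110, 102, 44.9 and 71.0 in Lpr and 57.9, 70.3, 78.1 and 68.4 in DNase. All MRL/lpr kidneys lay above Ctr, and the lowest of them was Lpr replicate 3. Samhd1 has the next to longest listed length (4710 bases), and the part of that library's trend with length in its value was not tested. Lpr exceeded Ctr 2.41-fold (log2 1.27, SE 0.30, edgeR adjusted p = 0.0284) and DNase exceeded Ctr 2.01-fold (log2 1.01, SE 0.11, edgeR adjusted p = 0.000183). The former passed in 8 of 16 alternatives. It was lost without Ctr replicate 1 (edgeR adjusted p = 0.119), Ctr replicate 2 (0.101), Ctr replicate 3 (0.116), Lpr replicate 1 (0.0667) or Lpr replicate 2 (0.0793), and without Lpr replicate 3 the log2 difference was 1.47 with 0.00111. The latter passed in all 16. Between DNase and Lpr the log2 difference was -0.26 (95% interval -0.82 to 0.31, edgeR adjusted p = 0.856). It ranged from -0.46 without Lpr replicate 3 (edgeR adjusted p = 0.408) to -0.0861 without Lpr replicate 1 (0.913), and was -0.14 without Lpr replicate 2.

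Plac8 had 10.4, 10.5 and 12.4 CPM in Ctr, 49.9, 78.5, 130 and 35.2 in Lpr and 31.4, 33.7, 39.8 and 40.2 in DNase. The 8 MRL/lpr kidneys exceeded Ctr, and 3 of 4 Lpr kidneys exceeded every DNase kidney. Lpr was 6.70-fold above Ctr (log2 2.74, SE 0.44, edgeR adjusted p = 0.00535) and DNase 3.28-fold above Ctr (log2 1.71, SE 0.13, edgeR adjusted p = 2.2e-05), and both passed in all 16 alternatives. DNase was 2.04-fold below Lpr (log2 -1.03, SE 0.35, 95% interval -1.82 to -0.23) with an unadjusted p of 0.0165 and an edgeR adjusted p of 0.82. Without Lpr replicate 3, the highest kidney, the log2 difference was -0.60. T cell markers moved with Plac8 between Lpr and Ctr, with summed levels of 7 genes of 1.81 to 3.01 FPKM in Ctr, 30.8 to 75.3 in Lpr and 33.3 to 55.9 in DNase and 7 of 7 past the test. Between DNase and Lpr these 7 genes had a median log2 difference of -0.20, with 2 of 7 above 0, beside -1.03 for Plac8. Lpr replicate 3, the highest kidney for Plac8, had a T cell sum of 46.9 FPKM, inside the Lpr range. Macrophage markers also rose between Ctr and Lpr (above). The part of these cells in the level of Plac8 was not tested.

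The exonuclease Trex1, which degrades DNA in the cytosol, was not analysed here. A read-through locus named Atrip-trex1 had 8 to 42 counts per kidney and was not taken as a value of Trex1, whose exon bases lie to 100% within those of Atrip in GENCODE gene models.

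Counted together, 3 of 9 members rose between Ctr and Lpr (Dnase1l3, Samhd1 and Plac8) and 1 fell (Dnase1) at an edgeR adjusted p under 0.05. Over all 16074 genes tested, 7.27% rose and 2.92% fell. With a log2 fold change above 2 in size as well, 2 members were called (Dnase1l3 and Plac8) against 5.78% of all genes. The CPM of the groups did not overlap for 5 members, against 25.6% of all genes. The median log2 fold change was 0.52 over the members and 0.03 over all genes.

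Between DNase and Lpr, 0 of 9 members passed edgeR's adjusted threshold, as did 0% of the 15832 genes tested. Dnase1 and Plac8 had an unadjusted p under 0.05, that is 2 of 9 members beside 5.60% of all genes. DESeq2 also called 0 members. The CPM of the groups overlapped for all 9 members, whereas 3.76% of all genes did not overlap. The median log2 fold change was -0.19 over the members and -0.02 over all genes. In this comparison no member passed under any of the 17 alternatives. Adjusted p for Dnase1 ranged from 0.297 to 0.997 in edgeR, limma and DESeq2.

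Between DNase and Ctr, 4 members rose (Dnase1l1, Dnase1l3, Samhd1 and Plac8) and 2 fell (Dnase1 and Dnase1l2), while 13.1% of 16100 genes rose and 8.61% fell. The rule with a log2 fold change above 2 called 1 member (Dnase1l3) and 6.01% of all genes. CPM did not overlap for 4 members and for 31.9% of all genes. The median log2 fold change was 0.23 over the members and 0.00 over all genes.

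**Figure D3:**
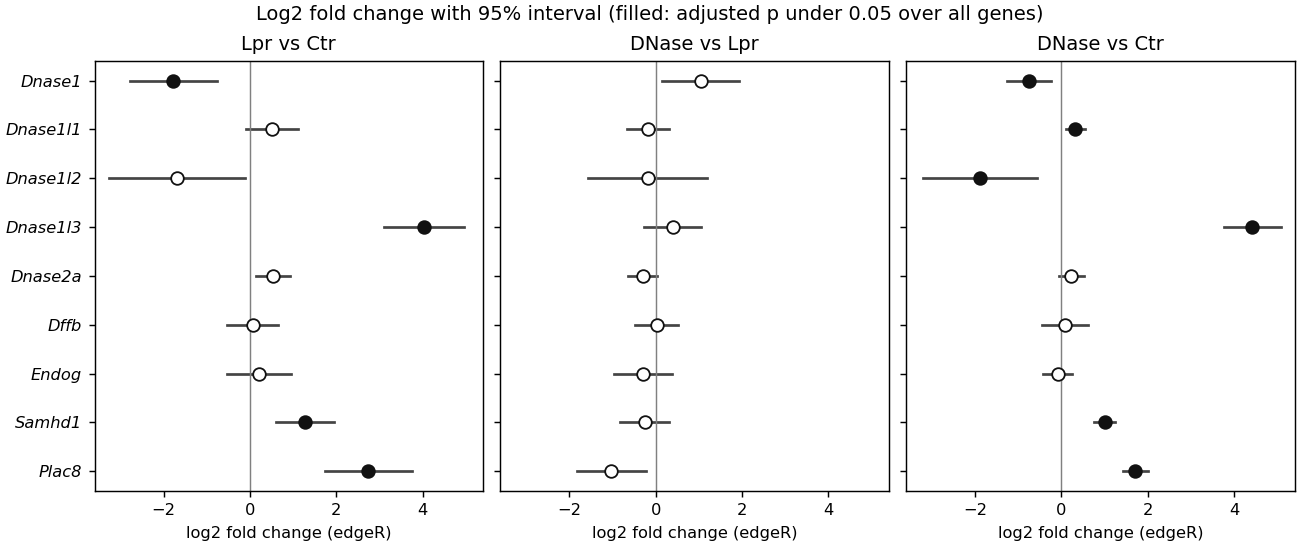
Log2 fold change of the 9 analysed genes (x axis, edgeR) with 95% interval in each of the 3 comparisons, filled where the adjusted p over all genes tested was under 0.05. Between DNase and Lpr all points are open, and the intervals of Dnase1 (0.15 to 1.93) and Plac8 (-1.82 to -0.23) do not reach 0.

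Genes that work beside the nucleases were counted on 7 lists with 98 genes. Of 93 tested between Lpr and Ctr, 31 rose and 2 fell, beside 7.27% and 2.92% of all genes. The median log2 fold change was 0.44. Of 92 tested between DNase and Lpr, 0 passed edgeR's adjusted threshold and the median was -0.27. An unadjusted p under 0.05 was held by 17 of the 92, beside 5.60% of all genes. Of 93 tested between DNase and Ctr, 38 rose and 11 fell, beside 13.1% and 8.61% of all genes, the latter near the share of the lists. The same shares apply to the counts of single lists below, which rest on few genes. DESeq2 called 0 of these genes between DNase and Lpr.

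Among 19 other nucleases tested, 3 rose and 1 fell between Ctr and Lpr. Pld4, an endolysosomal exonuclease of single-stranded nucleic acids, rose from 6.07 CPM ± 0.695 (n = 3) to 56.4 ± 13.1 (n = 4), 9.38-fold. Rnaset2a rose 3.01-fold while its near-identical copy Rnaset2b had 2.57-fold less. How reads were assigned between such copies is not given in the sources used here, so both values are uncertain. Of the partners of apoptotic DNA fragmentation, 2 of 14 rose and 0 fell, among them Top2a (4.60-fold), a topoisomerase of dividing cells. The 5 genes of the SET complex, which works with Trex1, had 0 calls, and Hmgb2 had the smallest p (1.84-fold, edgeR adjusted p = 0.136).

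Of 10 genes of dNTP supply, the pool that Samhd1 depletes, 2 rose and 1 fell between Ctr and Lpr. The salvage kinases Tk1 and Dck rose 3.13-fold and 2.02-fold, and the ribonucleotide reductase subunit Rrm2b was 2.18-fold lower, at 13.6 CPM ± 1.85 against 29.9 ± 2.52. In DNase kidneys Rrm2b had 15.2 CPM ± 0.460 and was also below Ctr (edgeR adjusted p = 6.9e-05).

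DNA sensing and interferon lists held more calls. Of 13 DNA sensing genes 8 rose, with a median log2 fold change of 2.05. They were led by the DNA sensors Aim2 (10.7-fold) and Zbp1 (8.44-fold) and by Ifi205 (5.21-fold). In Ctr, Aim2 had 0.255 to 0.404 CPM and Ifi205 0.128 to 0.890, so these 2 folds rest on few Ctr counts. Of 18 interferon-stimulated genes 12 rose with a median of 1.71, among them Bst2 (7.12-fold) and Rtp4 (4.42-fold). Of 16 genes for uptake of dead cells 4 rose with a median of 0.31, led by the complement genes C1qa (10.9-fold), C1qc (8.28-fold) and C1qb (7.80-fold). C1qa and C1qb also stand on the macrophage list.

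Against Lpr, the DNase kidneys had a median log2 difference of -0.73 over the 18 interferon-stimulated genes, with 0 of 18 above 0. The smallest p on that list was that of Oas1a (2.14-fold lower, edgeR adjusted p = 0.82), and on the DNA sensing list that of Ifi204 (1.86-fold lower, edgeR adjusted p = 0.82). Samhd1 differed by -0.26 in the same fit, and by -0.46 without Lpr replicate 3. The smallest p values on the other 5 lists belonged to Fen1, Top2a, Apex1, Rrm2 and Pros1, which were 1.28-fold to 1.53-fold lower in DNase, with edgeR adjusted p from 0.82 to 0.854.

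Against Ctr, the DNase kidneys had 9 of 13 DNA sensing genes higher. Among them were Aim2 (9.50-fold), Zbp1 (5.05-fold) and Tlr9 (5.75-fold), the endosomal receptor of DNA. The fold of Aim2 again rests on few Ctr counts. Of the interferon-stimulated genes 15 of 18 rose and 1 fell, among them Bst2 (3.95-fold) and Oas2 (2.54-fold). For uptake of dead cells 5 of 16 genes rose and 4 fell, with C1qa 7.30-fold, C1qc 6.22-fold and C1qb 5.64-fold higher. Among 19 other nucleases 3 rose, Pld4 by 6.98-fold, and 2 fell, shares close to the 13.1% and 8.61% of all genes. Of the apoptotic partners 4 of 14 rose, among them Top2a (3.22-fold) and the apoptosome gene Apaf1 (1.61-fold), and 2 fell. Hmgb2 was the 1 gene of 5 in the SET complex that rose (1.53-fold). For dNTP supply 2 of 10 rose and 2 fell, with Tk1 2.27-fold higher and the deaminase Dctd 2.48-fold lower.

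**Figure D4:**
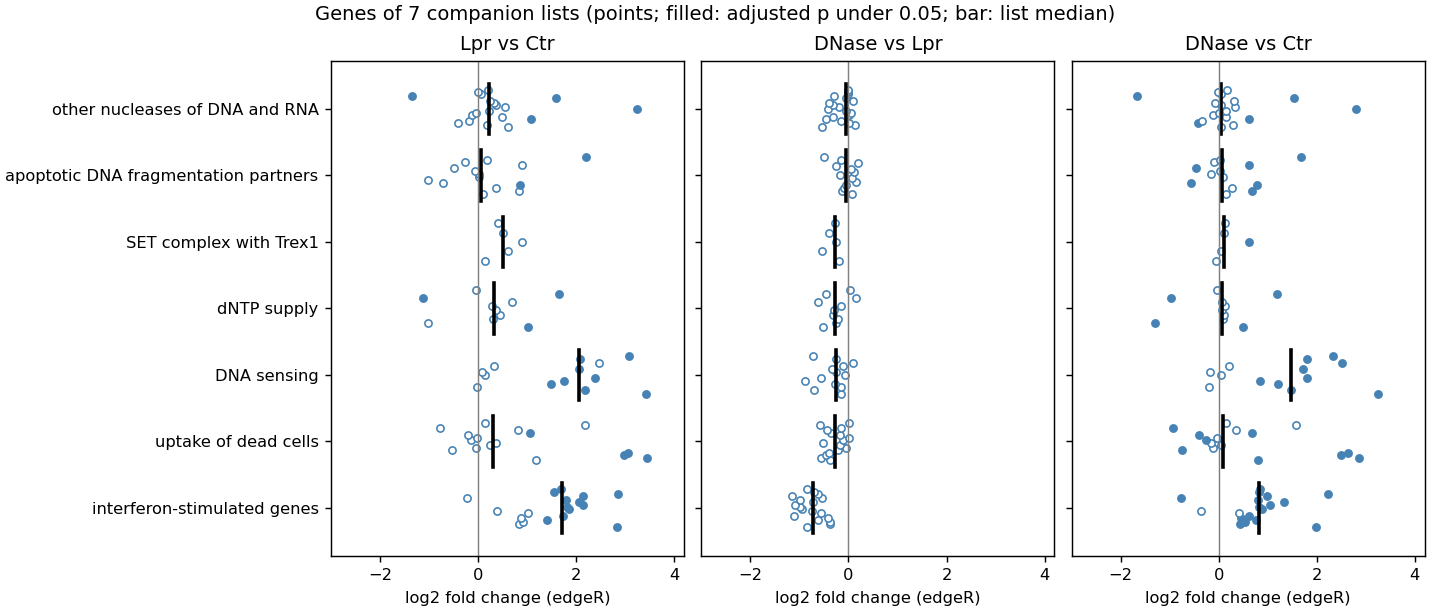
Log2 fold change (x axis, edgeR) of each tested gene on the 7 companion lists (y axis), filled where the adjusted p over all genes was under 0.05, with a bar at the list median. The medians of DNA sensing and interferon-stimulated genes lie at 2.05 and 1.71 between Lpr and Ctr, and all points are open between DNase and Lpr.

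Genes with the most similar pattern over the 8 MRL/lpr kidneys were sought among 13971 genes by Pearson r of log2 CPM, as a description. For Dnase1 these were Grb7 (r = 0.968), Gm9222 and Gm16793 (both 0.954). For Dnase1l3 they were Vps9d1 (0.986), Trim36 (0.970) and Tmem151a (0.967), and for Samhd1 Gbp5 (0.987), Zbtb7b (0.986) and 2510039O18Rik (0.985). Plac8 was most like Ppp2r2d (0.995), Lgals3 (0.991) and Ywhah (0.988). Dnase2a was most like Apobec3 (0.966), Rbm43 (0.963) and Klra2 (0.950), Dnase1l1 like Sphk1 (0.987), Prr15 (0.977) and Hcst (0.970), and Dnase1l2 like Rflna (0.964), Fcgbp (0.953) and Sbspon (0.950). Endog was most like Psmc3ip (0.999), Asnsd1 (0.995) and Pih1d1 (0.990), and Dffb like Prnp (0.908), Glul (0.895) and Treml4 (0.893). Without Lpr replicate 3 these values ranged from 0.904 to 0.998. These values describe 8 kidneys and carry no p.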

How the data were processed

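Kidney RNA of 11 mice was sequenced by the authors as 100 bp paired-end reads. The deposited counts are raw read numbers per gene. The deposited FPKM values are the same counts over library total and a gene length. The submitters' processing notes name fastp, HTSeq, DESeq2, R 3.2.0 and build mm10, the study's methods name HTSeq for aligning the reads, and a separate aligner and the annotation are not given in the sources used here. Samples were grouped by title. All columns were used, so that unused columns numbered 0.

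Pairs of groups were compared on counts with edgeR 4.0.16 (quasi-likelihood test, filterByExpr, TMM, Benjamini-Hochberg over all genes tested) in R 4.3.3, with the libraries of the 2 groups in each fit. Calls used an adjusted p under 0.05, and in addition an absolute log2 fold change above 2, the threshold in the study's methods. Limma 3.58.1 on log2 FPKM (pseudocount 1 or 0.1, genes averaging 0.5 FPKM or more, or no filter), DESeq2 1.42.0 and other settings served as alternatives. Levels are compared between genes in FPKM. The lengths behind FPKM differ from GENCODE exon bases for some members, being longer for Plac8 (3910 against 1592) and Dffb (5105 against 2875) and shorter for Dnase1 (1492 against 3083), Dnase2a (1758 against 5389) and Samhd1 (4710 against 9150), so the order of levels between genes depends on them. Depth was 33469858 to 38460873 counts, and counts of 2 kidneys of a group spread more than sampling gives (chi-square per degree of freedom 17.5 to 393).

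The members and the lists were chosen with earlier results of these data known. The rule named all members and, per list and comparison, up to 3 called genes with the largest change and no overlap, or the gene with the smallest p. For each member it also named the 3 genes with the highest r (log2 CPM with a prior count of 2, at least 1 CPM on average). Some genes of the lists (Mx1, Mx2, Trbc1 and Trbc2) were not analysed here, and Dnase2b, Trex2 and Exo1 had too few counts. Exon overlaps and promoters came from GENCODE and RefSeq on GRCm38, the NCBI name of mm10. Results of some genes that the rule named are not reported here. The procedure was tested on simulated data. Figures used matplotlib 3.10.9.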

Additional observations from a re-analysis of the deposited data

Results flagged for a closer look

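Among 18 groups of 4 kidneys, 1 held a kidney far from the others in CPM. Dffb had 1.92 CPM in DNase replicate 1, from 69 counts, against 2.87, 2.88 and 2.98 CPM in the other 3 kidneys. Chance alone sets a kidney apart in about 1 of 20 groups.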

How the results depend on the processing

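The calls for Dnase1l3 and Plac8 against Ctr passed in every alternative, as did that of Samhd1 between DNase and Ctr. Between Lpr and Ctr, 4 members were called, and 2 with limma on log2(FPKM + 1) without a filter. Leaving out each kidney gave 2 to 5 members and 20 to 43 companion genes, against 33. The 2 came without Ctr replicates 1, 2 or 3 or Lpr replicate 1, and the 20 without Ctr replicate 1. Between DNase and Ctr, 6 members and 49 companion genes were called. All 3 groups in 1 edgeR fit called 3 and 24, and leaving out each kidney gave 3 to 5 members, with 3 without Ctr replicate 1 or DNase replicates 2, 3 or 4. The calls lost were those of Dnase1, Dnase1l1 and Dnase1l2, with adjusted p up to 0.332, 0.49 and 0.257 over edgeR, limma and DESeq2. The cause was not tested.

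Correlations of deviations of kidneys with the same replicate number were -0.277 to 0.158, and those with different numbers -0.29 to 0.368. No pairing by number was visible, but 3 or 4 such pairs per comparison are too few to decide it. With a replicate block, members called were 4 between Lpr and Ctr, 0 between DNase and Lpr and 3 between DNase and Ctr, and companion genes 31, 0 and 30. Under the block Dnase1 had an edgeR adjusted p of 0.0501 and Dnase1l2 of 0.0162 between Lpr and Ctr.

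Directions turned only for differences that did not pass, when 1 kidney was left out. Between Lpr and Ctr the log2 ranges were -0.0833 to 0.166 for Dffb and -0.19 to 0.35 for Endog. Between DNase and Lpr they were -0.0357 to 0.148 for Dffb, -0.71 to 0.23 for Dnase1l2 and -0.45 to 0.10 for Endog, and between DNase and Ctr -0.0748 to 0.212 for Dffb and -0.170 to 0.0251 for Endog. DESeq2 called 19 genes between DNase and Lpr, where edgeR called 0 (886 at an unadjusted p under 0.05). Low counts limit Dffb, Dnase1l2 and, in Ctr, Dnase1l3 and the companion genes Aim2 and Ifi205.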
